A study of Mus musculus with 2 samples.

Results

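The genes of the cytosolic ribosomal proteins were followed in fetal palate of the BALB/c mouse strain, taken at E18.5, late in gestation. They were taken by symbol alone: Rpl or Rps followed by a number, with a, l, x or y allowed after it, together with Rplp0, Rplp1, Rplp2 and Rpsa, without the Rps6k kinases and without pseudogenes. On the Affymetrix array 46 of 18193 genes with a probe set of their own met this rule, and they were read by 100 of 34945 single-gene probe sets. Rplp1 and many further members of the family have no such probe set, because their probe sets are annotated with processed copies of the gene as well. The series held 2 samples, 1 array of wild-type BALB/c palate and 1 array of BALB/c palate labelled as Myf5 and MyoD null, that is homozygous for null alleles of both transcription factors that commit cells to skeletal muscle. The series addresses the role of skeletal muscle in forming the palate. Whether tissue was pooled and how the null alleles were built is not stated in the labels. Without replicates no p-value is given, and each difference is one between these arrays only.

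The cytosolic ribosome reads messenger RNA and joins amino acids into protein. Its small subunit decodes the message, its large subunit forms the peptide bond and passes the chain through an exit tunnel, and a stalk of acidic proteins on the large subunit recruits the elongation factors. Ribosomal proteins are made in nearly every cell in matched amounts, and the messages of most of them start with a run of pyrimidines (the terminal oligopyrimidine, or TOP, element) through which growth signalling by mTORC1 sets their translation. Reduced dose of single members is known to cause Diamond-Blackfan anaemia and, in mice, skeletal and patterning defects.

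The start sites of the genes are shown first, because the TOP run is a known feature of this family that the symbols did not select. RefSeq windows of build GRCm38.p6, from 250 bases before to 50 bases after each annotated start, were found for 40 of the 46 genes (48 windows, since some genes have several starts). The 7 windows printed run from 30 bases before to 20 bases after the start and are written 5′ to 3′ on the gene's strand, and capitals mark the longest run of C and T that overlaps the stretch from 15 bases before to 25 after the start. They are those of the genes with the highest ratio (Rps6) and the lowest (Rpl39l), and of the gene with the longest run (Rpl7a). Rps4x is printed as a member with a short run. Rpl35, Rpl38 and Rplp2 are printed as members with long runs and small log2 ratios between the arrays (-0.11, -0.07 and -0.07). Other members differed less, among them Rps4x (0.01), so the printed windows do not stand for the family. The positions are chr4:86857348-86857397 on the minus strand for Rps6, chr16:10170198-10170247 on the plus strand for Rpl39l, chr2:26910777-26910826 on the plus strand for Rpl7a, chr2:39005112-39005161 on the minus strand for Rpl35, chr11:114668550-114668599 on the plus strand for Rpl38, chr7:141447621-141447670 on the plus strand for Rplp2 and chrX:102189372-102189421 on the minus strand for Rps4x.
Rps6: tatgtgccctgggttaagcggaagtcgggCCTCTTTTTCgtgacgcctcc
Rpl39l: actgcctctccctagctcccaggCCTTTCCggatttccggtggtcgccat
Rpl7a: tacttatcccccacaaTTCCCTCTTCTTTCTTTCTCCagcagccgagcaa
Rpl35: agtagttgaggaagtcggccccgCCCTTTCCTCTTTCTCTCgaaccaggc
Rpl38: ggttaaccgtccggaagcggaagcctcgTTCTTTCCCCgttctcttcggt
Rplp2: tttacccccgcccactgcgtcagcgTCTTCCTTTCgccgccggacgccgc
Rps4x: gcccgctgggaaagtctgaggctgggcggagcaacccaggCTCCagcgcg

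A run of at least 8 pyrimidines overlapping the stretch from 15 bases before to 25 after the start was counted. It was found in 23 of 48 windows of members (47.9%) and in 20.2% of all 32851 windows in the RefSeq table. Such a run need not begin at the annotated start: that of Rps7 began 22 bases after it and that of Rps25 22 bases before it. The count is therefore not one of TOP starts. The median run was 7 bases in members and 5 over all windows. The motif CCGGAAG, the core read by Ets-family factors such as GABP, was present on either strand in 41.7% of the members' 300-base windows and in 8.86% of all. The E-box CAGCTG, one of the sequences that MyoD and Myf5 bind, was present in 3 of 48 (6.25%) and in 16.3% of all, and the wider form CANNTG, which includes it, in 54.2% and 72.3%. The genes with CAGCTG were Rpl35, Rpl3l and Rpl6, named after the search. TATAAA was present in 10.4% and 13.6%, and CTCTTTC, which can lie within a pyrimidine run, in 14.6% and 8.16%. These matches describe letters in a window and not bound sites. The median log2 ratio between arrays was 0.10 over the 22 measured genes with a run of at least 8 and 0.01 over the 15 without, and 0.03 over 20 with CCGGAAG and 0.06 over 17 without, and these differences were not tested.

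Ribosomal protein genes differed little between the arrays. Signals are the authors' MAS5 values, scaled between arrays, and a gene stands for its brightest probe set; it was taken as measured if either array had at least 658, the 60th percentile of all probe sets. Of the 46 genes 43 were measured, and the median log2 ratio of the null-labelled array over wild type was 0.03, beside 0.07 over all 11238 measured genes. No member was below wild type by 2-fold or more (4.22% of all measured genes did), and no member was above it by 2-fold or more (3.51% did), against 7.72% of all measured genes in either direction. At 1.5-fold, 1 member was higher (Rps6) and none lower, against 13.2% and 11.7%. The count at 1.5-fold depended on the scaling: 2 members were lower with quantile normalization and with lowess centring (Rpl27 and Rps15) and with both reference gene scalings (Rps15 and Rpl39l). Below 0 lay 19 of the 43 members and 43.7% of all measured genes. The members ran from -0.46 (Rpl39l) to 0.73 (Rps6), with an SD of 0.25, and the SD over all measured genes was 0.59. Within 1.5-fold lay 42 of the 43 members and 8432 of the 11238 measured genes. With a mean signal of at least 50000 it was 22 of 22 members and 122 of 133 other genes. Between 10000 and 50000 it was 11 of 11 and 1013 of 1239, and under 10000 it was 9 of 10 and 7255 of 9823. The sum of the signals of the representative probe sets of the 46 genes was 2350890 in wild type and 2461180 on the other array (0.07 in log2) and made up 2.28% and 2.19% of the signal of all probe sets.

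**Figure D1:**
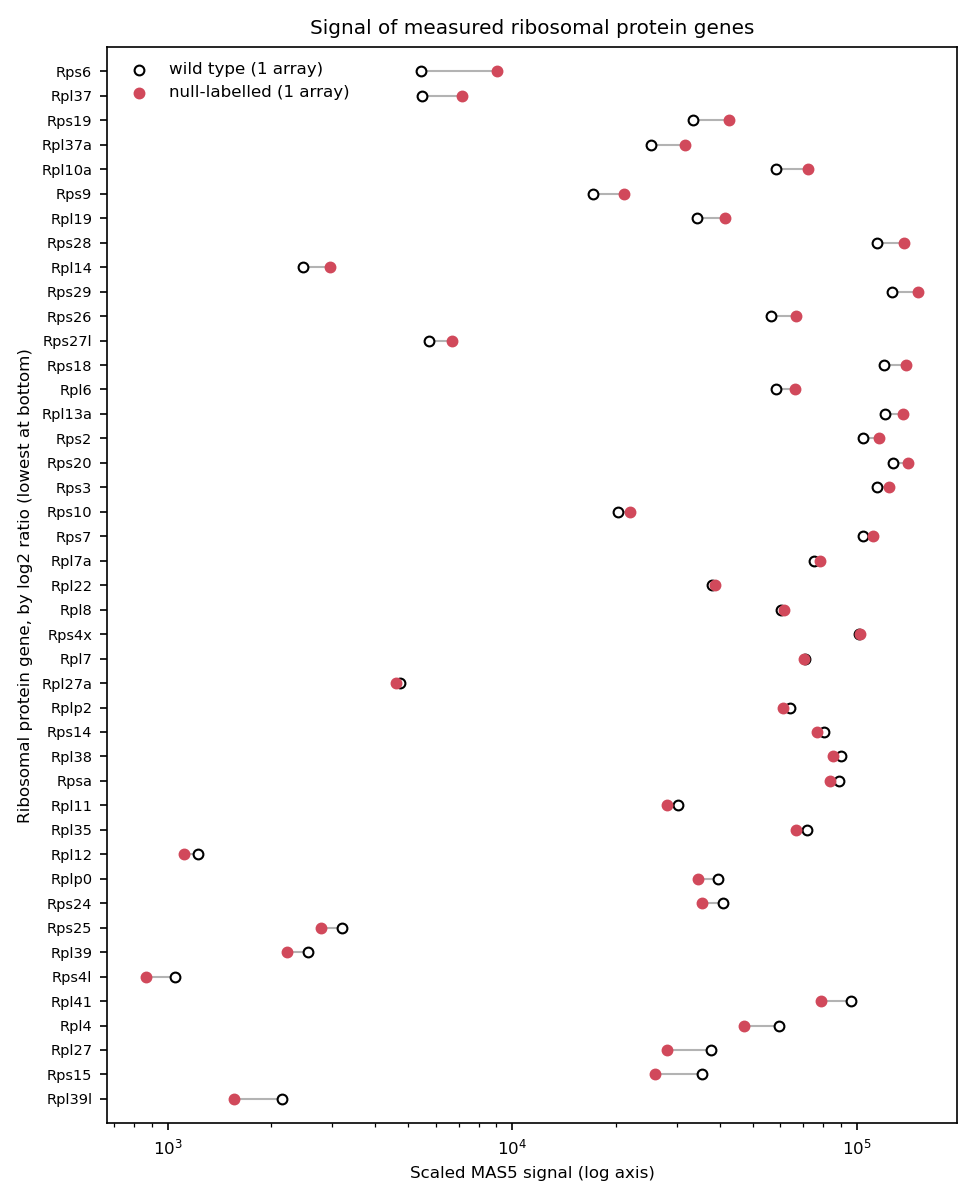
Scaled MAS5 signal (log axis) of the 43 measured ribosomal protein genes on the wild-type array (open circles) and the null-labelled array (filled circles), 1 array each, ordered by log2 ratio with the lowest at the bottom. The circles of most genes lie close together, and Rps6 at the top has the widest gap, from 5446 to 9059.

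Most members were very bright. Among the 22 members with a mean signal of at least 50000 the SD of the log2 ratio was 0.17, and it was 0.21 among 133 other genes of that brightness. In this class the members had a median of 0.07 with 14 of 22 above 0, and the other genes a median of 0.27 with 123 of 133 above 0. Between 10000 and 50000 the median was 0.03 in 11 members (SD 0.30) and 0.21 in 1239 other genes (SD 0.54), and under 10000 it was -0.08 in 10 members (SD 0.36) and 0.04 in 9823 other genes (SD 0.59). The 555 other genes at or above the lower quartile of the members' signal had an SD of 0.48. Of these, 8 were lower and 8 higher by at least 2-fold. Of the 133 other genes with at least 50000, 0 were lower and 0 higher by as much. In that class the lack of 2-fold differences was therefore not particular to the members. Across genes, which are not replicates, the log2 ratio and the mean log2 signal had a Pearson correlation of 0.17 in the 43 members and 0.13 in the 11195 other genes. When the ratios were centred by lowess on signal, the median of the members was -0.15 and 31 of 43 were below 0. Whether so small a median lay above or below 0 therefore depended on the scaling. The median of the members minus that of all measured genes was below 0 in every scaling, from -0.03 to -0.15. No member reached 2-fold under any scaling that was run.

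**Figure D2:**
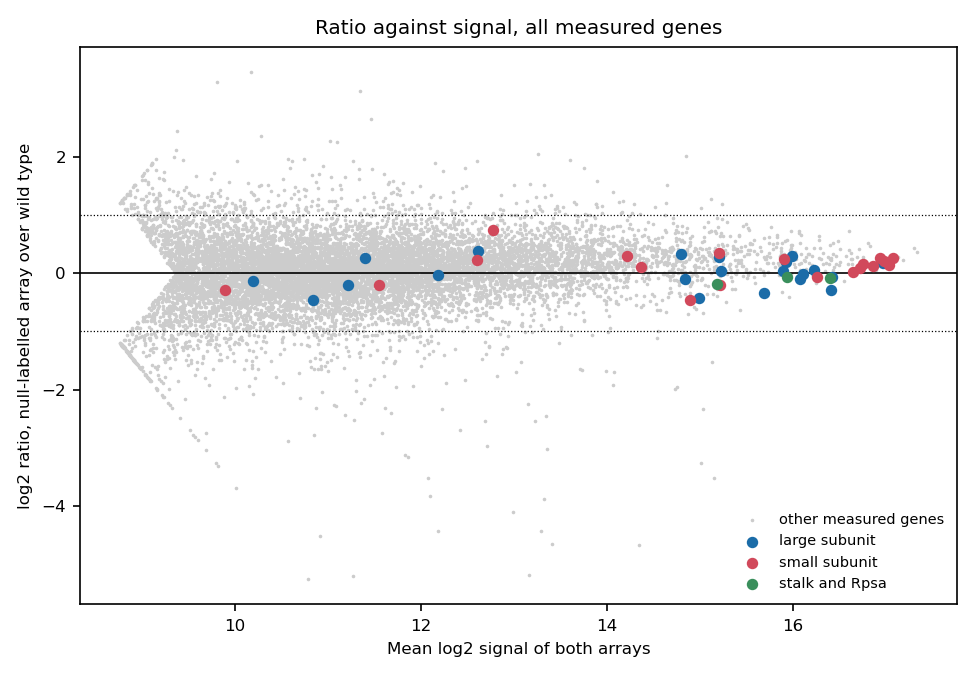
The log2 ratio of the null-labelled array over wild type against the mean log2 signal of both arrays for the 11238 measured genes; ribosomal protein genes are coloured by subunit, other genes are grey, and dotted lines mark 2-fold. All 43 members lie between the dotted lines, and most sit at the bright end.

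Among proteins of the small subunit, which binds and decodes the message, 14 of 19 measured genes were above 0, with a median log2 ratio of 0.15. Rpsa is described with the stalk proteins below, and with it the count is 14 of 20. Above 0 lay also 6330 of all 11238 measured genes. Of the 133 other genes with a mean signal of at least 50000, 123 were above 0, with a median of 0.27. Of the 28 measured genes chosen by the naming rule, 5 had another sign with lowess centring, 4 with quantile normalization, 3 and 2 with scaling on the signal and on the ratio of reference genes and 1 with the values as deposited. With lowess centring Rps18 was at -0.04, Rps20 at -0.10, Rps7 at -0.15, Rps4x at -0.23 and Rpl13a at -0.08. Rps6, the classical substrate of the S6 kinases below mTORC1, went from 5446 in wild type to 9059 on the null-labelled array, 1.66-fold higher. This was the 1 member past 1.5-fold, and it rests on a single measured probe set, since a further one lay under the floor of 287 on both arrays. Rps19, the member most often mutated in Diamond-Blackfan anaemia, went from 33483 to 42608, a log2 ratio of 0.35. Rps9 went from 17150 to 21093 (0.30), and its other measured probe set gave 0.77. Rps28, which lies where the message leaves the ribosome, gave 114459 and 137157, and the zinc-binding protein Rps29 gave 126398 and 150978. Both had a log2 ratio of 0.26, and Rps26, a neighbour of Rps28, had 0.24. After lowess centring Rps28 was at 0.02, Rps29 at 0.01, Rps9 at 0.10, Rps19 at 0.13 and Rps6 at 0.61.

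Further small-subunit genes lay on both sides of 0. Rps20 went from 127663 to 141214 (0.15; its other measured probe sets gave 0.19 and 0.56), Rps18 from 119940 to 138587 (0.21; others 0.12 and -0.12) and Rps2 from 104626 to 116300 (0.15). Rps3, which lines the channel where the message enters, had 114226 and 124164 (0.12), with 0.58 in its other measured probe set. Rps7, whose loss of dose alters the skeleton and pigmentation of mice, had 104596 and 111197 (0.09), with 0.39 in the other. Rps10 gave 0.11, Rps14 -0.07, Rps24 -0.20 and Rps25 -0.20. On the lower side Rps15 went from 35678 to 26059 (-0.45), with -0.17 in its second probe set.

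Among large-subunit proteins without the stalk 10 of 21 measured genes were above 0 and the median log2 ratio was -0.01; with Rplp0 and Rplp2 the count is 10 of 23. Rpl37 went from 5491 to 7147 (0.38), Rpl37a from 25289 to 31735 (0.33), and Rpl10a, which has been reported to vary between ribosomes, from 58507 to 72098 (0.30). Apart from the paralog Rpl39l, described below, the lowest were Rpl27, from 37823 to 28063 (-0.43), Rpl4, which lines the exit tunnel, from 59343 to 47082 (-0.33), and Rpl41, the smallest ribosomal protein, from 95974 to 78542 (-0.29). Rpl38, which is mutated in the Tail-short mouse and supports the translation of Hox messages, gave 89793 and 85493 (-0.07). Rpl11, which binds Mdm2 when ribosome assembly fails, gave 30217 and 28171 (-0.10). Rpl13a (121209 and 135959, 0.17), Rpl19 (0.27), Rpl14 (0.26) and Rpl6 (0.18) were slightly above 0. Rpl7, Rpl7a, Rpl8, Rpl22 and Rpl27a all lay between -0.03 and 0.06 by their brightest probe sets. The other measured probe sets gave -0.24 and -0.25 for Rpl7 and 0.45 and -0.12 for Rpl22.

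The small-subunit median was above the large-subunit median in the main scaling (0.15 and -0.01), but it turned to -0.06 with quantile normalization, to -0.0016 with scaling on the signal of reference genes and to -0.09 with lowess centring, where the large-subunit median was -0.15, -0.16 and -0.18. Taking the mean over measured probe sets gave medians of 0.24 for small and -0.03 for large, and taking the dimmest gave 0.24 and -0.07. With probe sets that have no suffix in their name the order was the other way, -0.19 for small and -0.13 for large. Only 17 of the 43 measured genes had such a probe set. The median of the mean signals was 61203 for small-subunit and 38343 for large-subunit genes, and the part of this difference in the order was not tested.

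The stalk proteins and Rpsa were slightly below 0. Rplp0, the stalk's base, went from 39637 to 34634 (-0.19), and Rplp2, an acidic protein of its tip, from 63948 to 61113 (-0.07). Rpsa, a small-subunit protein also known as the precursor of a laminin receptor, gave 88941 and 83575 (-0.09) in its measured probe set. The gaps in all 3 are smaller than the SD of 0.28 between measured probe sets of one member gene.

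Paralogs with a narrow or altered expression were few on the array. Rpl3l, which replaces Rpl3 in striated muscle, lay under the floor on both arrays (84.0 and 40.7), so no ratio is given, and Rpl3 itself had no single-gene probe set. Rpl39l, a copy of the tunnel protein Rpl39 known mainly from the testis, had the lowest ratio of all members, with signals of 2155 and 1563 (-0.46), and Rpl39 went from 2563 to 2217 (-0.21). Rps4l, an autosomal copy of the X-linked Rps4x, went from 1052 to 863 (-0.28), whereas Rps4x gave 101610 and 102451 (0.01). Rps27l, a copy of Rps27 that p53 induces, went from 5751 to 6705 (0.22), and its other probe sets gave 0.50 and 0.61. The single-gene probe sets of Rps27 (149 and 438) and Rps16 (6.30 and 11.6) were not measured. Both genes also have probe sets annotated with their copies, so these dim probe sets alone do not describe them.

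Probe sets of the same gene could be set against each other in 19 members with at least 2 measured probe sets. The pooled SD of their log2 ratios was 0.28 over 60 probe sets, and 0.52 over 10130 probe sets of 4011 other genes. These sets were not matched for signal, and most members were very bright. In 5 of the 19 genes all probe sets were below 0, in 7 all were above 0, and in 7 they were on both sides. Those of Rpl35 agreed most closely among genes with 5, from -0.19 to -0.09. All 4 of Rpl41 were lower (-0.59 to -0.29), and all 3 of Rps28 (0.26 to 0.37) and of Rps29 (0.26 to 0.34) were higher. The widest range was that of Rpl37a, from -0.54 to 0.87, followed by Rps24, from -0.47 to 0.54, and Rps10, from -0.65 to 0.11. For Rpl27, the gene with the third lowest ratio, the other probe sets gave 0.10 and 0.12.

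**Figure D3:**
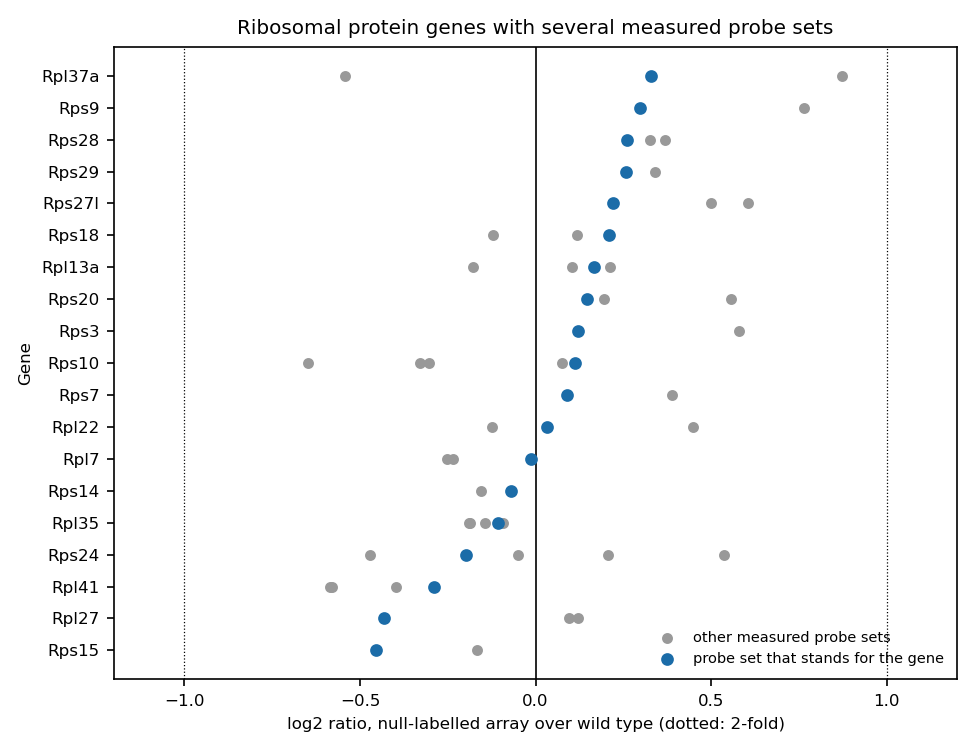
The log2 ratio of every measured probe set of the 19 ribosomal protein genes with at least 2, with the probe set that stands for the gene in blue and the others in grey; dotted lines mark 2-fold. No probe set passes 2-fold, and 7 genes have probe sets on both sides of 0.

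Over all probe sets of the family the spread was wider than over the genes, with an SD of 0.33. Of the 100, 84 were measured, none was at least 2-fold lower or higher (4.52% and 3.68% of all measured single-gene probe sets, 8.20% together), and 78 lay within 1.5-fold. At 1.5-fold 2 were lower and 4 higher, against 25.7% of all measured single-gene probe sets in either direction. The 17 measured probe sets without a suffix had a median of -0.17, with 13 below 0, while 38 with the suffix x, which marks probes shared with other sequences, had 0.11 and 26 with the suffix a, for transcripts of one gene, had 0.09. A further 110 probe sets are annotated with a ribosomal protein gene together with other genes, mostly its processed copies, and carry 29 ribosomal protein symbols that the single-gene probe sets lack. Of these 97 were measured, with a median log2 ratio of 0.12, and 95 lay within 2-fold. The exceptions, chosen after their values were seen, went from 27616 to 7027 (-1.97) and from 26888 to 13148 (-1.03), and neither can be assigned to 1 gene.

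Genes that make or use the ribosome were read from lists by symbol. Counts past 2-fold in these lists stand beside 4.22% lower and 3.51% higher among all measured genes. Mitochondrial ribosomal proteins, which build the separate ribosome of that organelle, had a median log2 ratio of -0.0039 over 75 measured genes and an SD of 0.38; 2 were lower by at least 2-fold and none was higher by as much. These were Mrps34, from 2835 to 1286 (2.20-fold lower), and Mrpl47, from 1253 to 588 (2.13-fold lower), and Mrpl55 was the furthest above 0, from 453 to 821 (0.86). Genes with Eif symbols, which include initiation factors, their kinases and binding proteins, had a median of -0.09 over 45 genes. None was at least 2-fold lower and 2 were higher. The kinase Eif2ak2, which halts initiation in response to viral RNA, went from 387 to 870 (2.25-fold). Another probe set of Eif2ak2, below the measured level on both arrays, gave 332 and 341. The Y-linked Eif2s3y was at least 9.74-fold higher, from 10.8 to 2794.

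Elongation and termination factors had a median of 0.02 over 11 genes, of which 1 was past 2-fold. This was Eef2, which moves the ribosome along the message, with signals of 60886 and then 21162 (2.88-fold lower) by 1 measured probe set. Eef1a1, which delivers transfer RNA, went from 137386 to 160944 (0.23), Eef1e1 had 0.63 and Gspt1, a release factor, -0.60, with -0.71, 0.21 and 0.10 in its other measured probe sets. Eef2 was also the exception among 17 measured genes of other messages with a TOP start, whose median was 0.04 and of which the other 16 lay within 1.5-fold. In that list Npm1 had -0.38 and Fau, which encodes a further small-subunit protein as a fusion, -0.24 (19219 and 16245). All 11 measured ribosome-associated proteins and other paralogs lay within 1.5-fold, from -0.24 (Fau) to 0.29 (Rsl24d1, a factor of large-subunit assembly), with Btf3 at -0.21 and the paralog Rpl22l1 at 0.19.

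Ribosome biogenesis genes had a median log2 ratio of -0.14 over 53 measured genes, with 33 below 0 and 1 gene past 2-fold on either side. Ncl, the nucleolar protein nucleolin, went from 14922 to 4613 (3.23-fold lower), and its 3 other measured probe sets gave -1.77, -0.72 and -0.22. Nop14, of the small-subunit processome, went from 751 to 1564 (2.08-fold higher), and Ltv1, a late assembly factor of the small subunit, had -0.99. In the mTORC1 pathway none of 21 measured genes passed 2-fold and the median was 0.04; Pdcd4, an inhibitor of the helicase Eif4a, had 0.82, Eif4ebp2, a repressor of cap binding, 0.79, and Akt1s1 -0.63. Of 12 measured genes of p53 and its targets 1 passed 2-fold, Gadd45a (1056 and 2561, 2.42-fold higher), and the median was -0.09, with Mdm2 at -0.46 (its other measured probe set gave 0.34) and Ccng1 at 0.48 (others 0.49 and -0.10). The reference genes, which hold no ribosomal protein, had a median of 0.14 over 17.

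**Figure D4:**
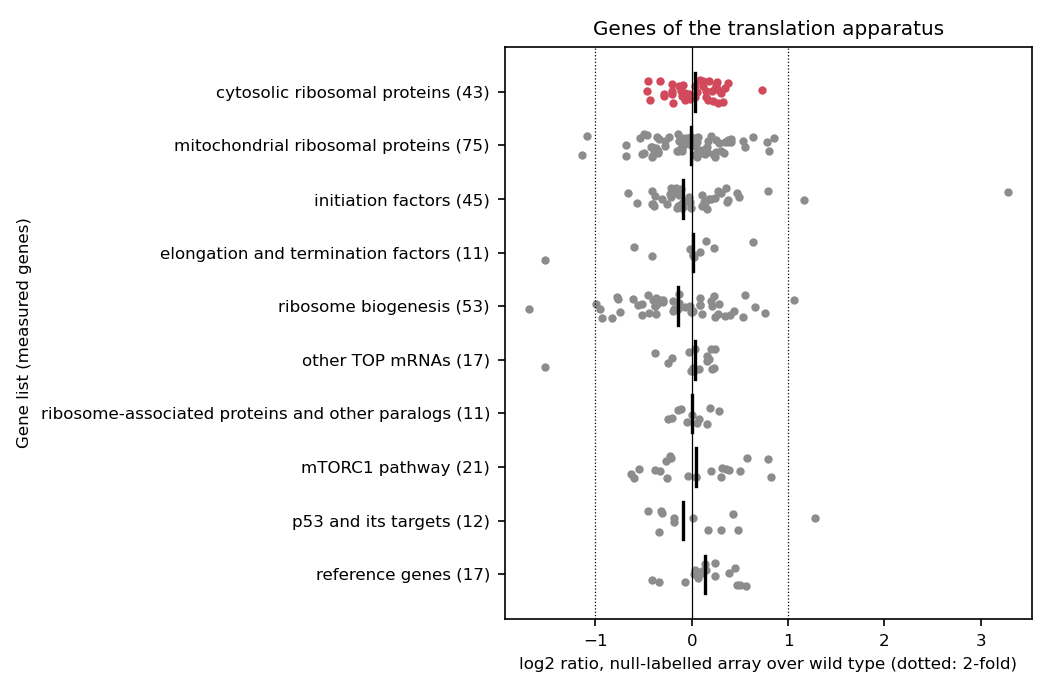
The log2 ratio of each measured gene in the cytosolic ribosomal protein family and in 9 lists by symbol, with the median of each as a black bar and 2-fold as dotted lines; the number of measured genes follows each name, and points are spread vertically for legibility. Medians lie between -0.14 and 0.14, and the ribosomal protein genes are the first row, with no gene past 2-fold.

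The arrays differed in tissue markers, in sex-linked transcripts and in RNA controls. The summed signal of 8 skeletal muscle markers went from 166230 to 87087 with all 8 lower, that of 8 stratified epithelium markers from 101236 to 51561 with all 8 lower, and that of 9 neuron markers from 56480 to 122166 with all 9 higher. Of 8 markers of palatal mesenchyme and fibroblasts 5 were lower and 3 higher, and Osr2 was not measured. Their sum was 202445 and 213190, of which Col1a2 gave 123685 and 147333, and Msx1 went from 9515 to 2561. The sum of 4 bone markers was 115257 and 105915 with 3 lower, and that of 5 endothelial markers 8270 and 6728 with 4 lower. Xist, the RNA of the inactive X chromosome, gave 33813 and 16947, beside the Y-linked Eif2s3y at 10.8 and 2794. These sex-linked transcripts differed along with the genotype label. With 1 array per genotype, the sex make-up of the tissue and the genotype cannot be told apart. In bulk tissue, fewer cells of a type and less RNA per cell cannot be told apart. Myod1 gave 1938 and 1663 in its measured probe set and Myf5 517 and 531 in a probe set below the measured level, so neither targeted gene told the arrays apart, and where these probe sets lie relative to the removed parts was not analysed here. For this reason the second array is named here by its label. The ratio of signal at the 3′ end to that at the 5′ end was 5.90 and 7.06 for Actb and 6.73 and 8.90 for Gapdh, and the 18 hybridisation controls were 0.35 to 0.68 higher in log2 on the null-labelled array. Probe sets for 18S ribosomal RNA, which the poly(A)-primed labelling is not designed to copy, gave log2 ratios of 0.74, 0.48 and 0.11 from the 5′ end to the 3′ end. The part of these differences in the ribosomal protein values was not tested.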

How the data were processed

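RNA of 2 samples was measured, 1 Affymetrix array for each genotype, from 6 µg of total RNA per the labels. The authors deposited a linear intensity for each probe set, computed by MAS5 (per the submitters' processing notes); its version, the genome build and detection calls are not given in the sources used here. Trimmed means leaving out 2% at either end were 1500 on both arrays. Gene names came from the platform annotation: of 45101, 34945 had 1 gene, 932 several and 9160 none listed, and 64 were controls. All 46 member identifiers were found in the RefSeq table of GRCm38.p6 with the same symbol.

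Arrays were scaled to the median of probe sets in the upper part (from the 50th percentile) of both (factors 0.974 and 1.03), floored at the 40th percentile (287) and put on log2. A gene stands for its brightest probe set. With 1 array per genotype no test was possible, and the number of arrays limits the precision. MAS5 signals of different probe sets are not comparable as levels.

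Members, lists and the rule for named genes were chosen with earlier results of these data known. The rule named the 6 lowest and 6 highest members, the 5 brightest and 5 dimmest measured, the stalk, paralogs with their parents, members with known developmental roles, and up to 4 genes of each list; other members are named to show the whole family. Steps were tested on simulated data with planted differences larger than that of any member. Recovery of differences as small as those of the members was not tested. Alternatives were other scalings, floors, filters, probe set choices and folds. Python 3.11.15, numpy 2.4.6, pandas 2.3.3, statsmodels 0.14.6 and matplotlib 3.10.9 were used.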

Additional observations from a re-analysis of the deposited data

How the results depend on the processing

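The count of ribosomal protein genes at least 2-fold lower was 0 and that at least 2-fold higher was 0 under every scaling, floor, filter and probe set choice that was run at that fold. At 1.5-fold, chosen with each alternative after seeing the data, 0 genes were lower and 1 was higher; 2 were lower with quantile normalization, both reference gene scalings and lowess centring, 3 were higher with the dimmest measured probe set and 2 without the filter on dim genes. The median log2 ratio (0.03) moved to -0.12 with quantile normalization, -0.12 with scaling on the signal and -0.11 with scaling on the ratio of reference genes, -0.15 with lowess centring and -0.17 over the 17 genes with a probe set without suffix. The number below 0, 19 of 43, became 30 with quantile normalization and 31 with lowess centring. It was 27 and 26 with scaling on the signal and on the ratio of reference genes. With the values as deposited it was 23, with the dimmest measured probe set 22, and over probe sets without suffix 13 of 17. Scaling on the signal of reference genes moved the median of all genes from 0.07 to -0.09. The median of the members minus that of all genes was -0.04 in the main scaling, -0.03 with both reference gene scalings, -0.14 with quantile normalization and -0.15 with lowess centring. Over genes with a probe set without suffix it was -0.23, and without the filter on dim genes it was 0.03. Of 291 values of single named genes under alternatives 10 moved by more than the SD between probe sets, all through another choice of probe set. The sign turned in 5 of 28 such genes with lowess centring, 4 with quantile normalization, 3 with the dimmest measured probe set and at most 3 with the other scalings. Depth is not a quantity of these arrays; 3 of 46 members were too dim to measure. No paired analysis was possible because each genotype had 1 array.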
